A study of Homo sapiens with 6 samples.

Results

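Peaks of RNA contact in 10 genes for translation factors were examined in 2 eCLIP peak lists from HEK293T cells. The genes were chosen by name, with earlier results of these data known. They were the elongation factor genes EEF1A1, EEF1B2, EEF1D, EEF1G and EEF2, the initiation factor genes EIF4G1, EIF4G2 and EIF4B, EIF5A, which encodes a factor first found in initiation and now known for elongation and termination, and PABPC1. A peak was a member when its midpoint lay in one of these genes on the same strand. This gave 2 of the 270 peaks of the G4PID list, both in EEF1D, and 24 of the 3660 peaks of the SF3B4 list, in 6 genes. HEK293T is a transformed line derived from human embryonic kidney. eCLIP crosslinks protein to RNA, pulls the protein down and sequences the RNA that comes with it. The 6 libraries were 2 of G4PID, an engineered biotin ligase that is targeted to G-quadruplexes and was recovered with an anti-HA antibody, 2 of SF3B4, recovered with an antibody against SF3B4, and 2 input libraries with no antibody. The shared protocol has the cells transfected with a plasmid for G4PID or for miniTurboID, the ligase without targeting, cultured for 24 h and given 500 µM biotin for 30 min, and it does not settle which libraries came from which plasmid. The labels leave unsaid whether libraries of 1 group were separate cultures or repeats of 1. The files analysed here hold a single list for each antibody and nothing per library, so the depth is unknown, no spread between replicates could be given and nothing was tested. The log2 fold over input and the −log10 p of each peak are the authors' values, and positions are on hg38.

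Translation factors guide the ribosome through its cycle. EIF4G1 is the scaffold that joins the cap-binding protein, the EIF4A helicase and the small ribosomal subunit, EIF4B stimulates the helicase, and PABPC1 binds the poly(A) tail and contacts EIF4G1. EIF4G2 (also DAP5) resembles EIF4G1 but lacks the part that binds the cap-binding protein. EEF1A1 brings aminoacyl-tRNA to the ribosome, EEF1B2, EEF1D and EEF1G form the complex that recharges it with GTP, and EEF2 moves the ribosome along the mRNA. SF3B4 is a subunit of SF3b, the part of the U2 small nuclear ribonucleoprotein that holds the branch point region, a short distance upstream of the 3' splice site at which the next exon begins.

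SF3B4 peaks stood in 3 of the 5 elongation factor genes (EEF1A1, EEF1D and EEF1G) and in EIF4G1, EIF4G2 and PABPC1 of the other 5. EIF4G1 had 8 peaks, EEF1A1 and EIF4G2 had 4 each, EEF1G and PABPC1 had 3 each, and EEF1D had 2. EEF1B2, EEF2, EIF4B and EIF5A had no peak in either list. The 6 of 10 genes compare with 1771 of 19940 protein-coding genes in the SF3B4 list (8.88%), and the 1 of 10 genes with a G4PID peak compares with 99 of 19940 (0.496%). The 10 genes were chosen with earlier results of these data known, so neither contrast is a result about translation factor genes. The amount of each RNA was not measured in these files, and its part in which genes have peaks was not tested. A gene without a peak had none past the authors' thresholds, which does not show that it was unbound.

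**Figure D1:**
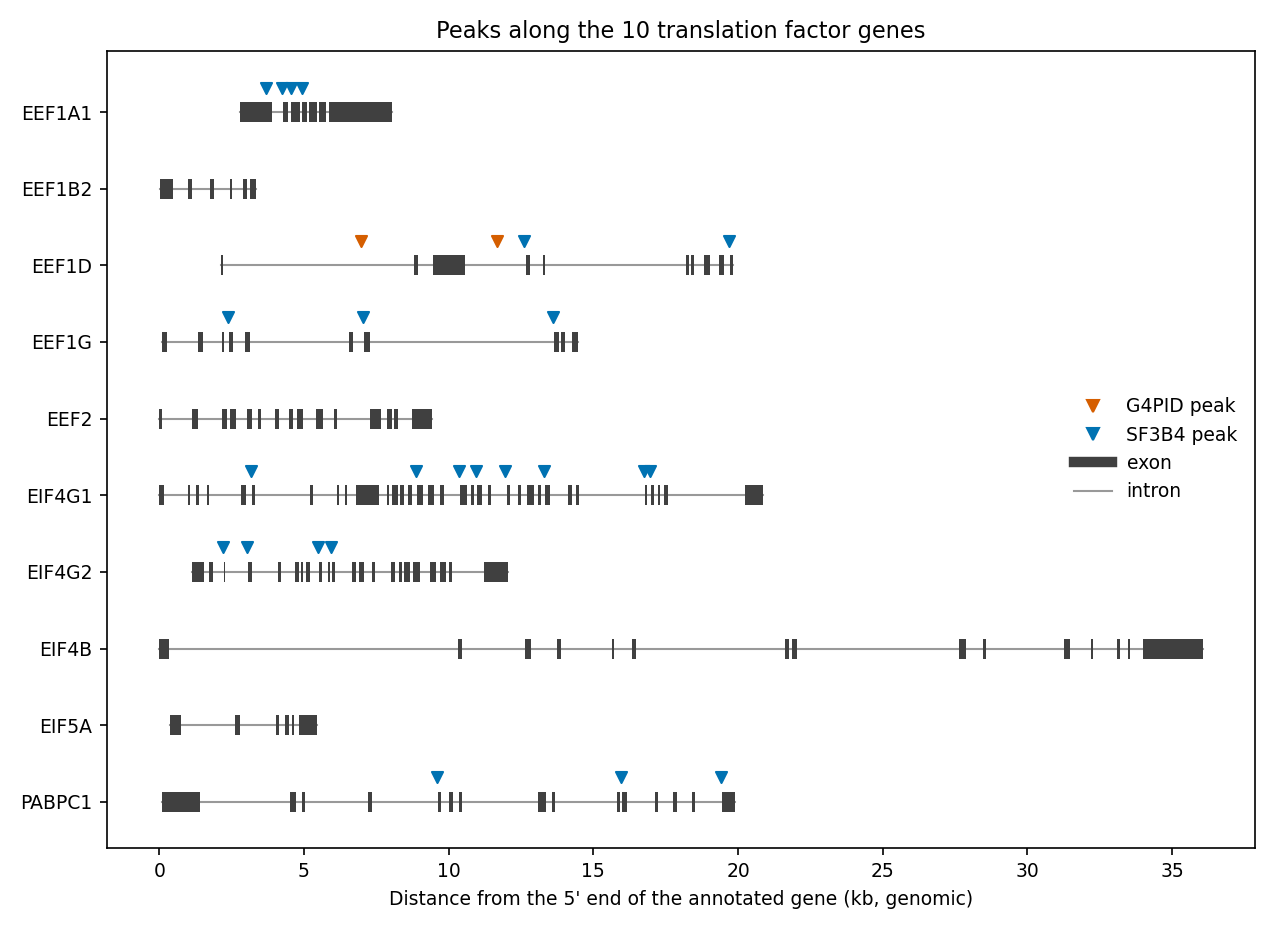
Peaks along the 10 genes. Each row is a gene, drawn from the 5' end of its annotated span (x axis, kb of genomic distance), with exons of 1 coding transcript as blocks, introns as lines, and a triangle at the midpoint of each G4PID peak and each SF3B4 peak. EEF1D carries both G4PID peaks, and the 24 SF3B4 peaks fall in 6 of the 10 rows.

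The SF3B4 peaks of these genes lay in introns, close to the end. Of 24 midpoints, 23 were intronic (95.8%, 95% Wilson interval 79.8 to 99.3%) and 0 were in coding exons, against 88.5% intronic and 4.84% in coding exons over the whole list. With exons of all annotated transcripts counted, retained introns included, 14 of 24 (58.3%) were intronic, against 50.5% of the whole list, because 9 of the intronic midpoints lie in an exon of a transcript outside the basic set. The remaining midpoint, in EEF1A1, lay in an untranslated exon. Measured to the nearest 3' splice site, 22 of 24 midpoints (91.7%, interval 74.2 to 97.7%) were 10 to 60 nt upstream, against 2496 of 3660 (68.2%, interval 66.7 to 69.7%) in the whole list. These intervals cover counting error only, treat the peaks as independent although peaks of 1 gene share their RNA, and were not used for a test. The 22 midpoints lay 25 to 46 nt upstream with a median of 32 nt and quartiles of 31 and 34.75 nt. The 2496 of the whole list had a median of 31 nt and quartiles of 22 and 39 nt. The 2 peaks farther upstream were in EEF1D (91 nt) and EIF4G1 (84 nt), so that all 24 midpoints lay within 100 nt of a 3' splice site and on its intron side.

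**Figure D2:**
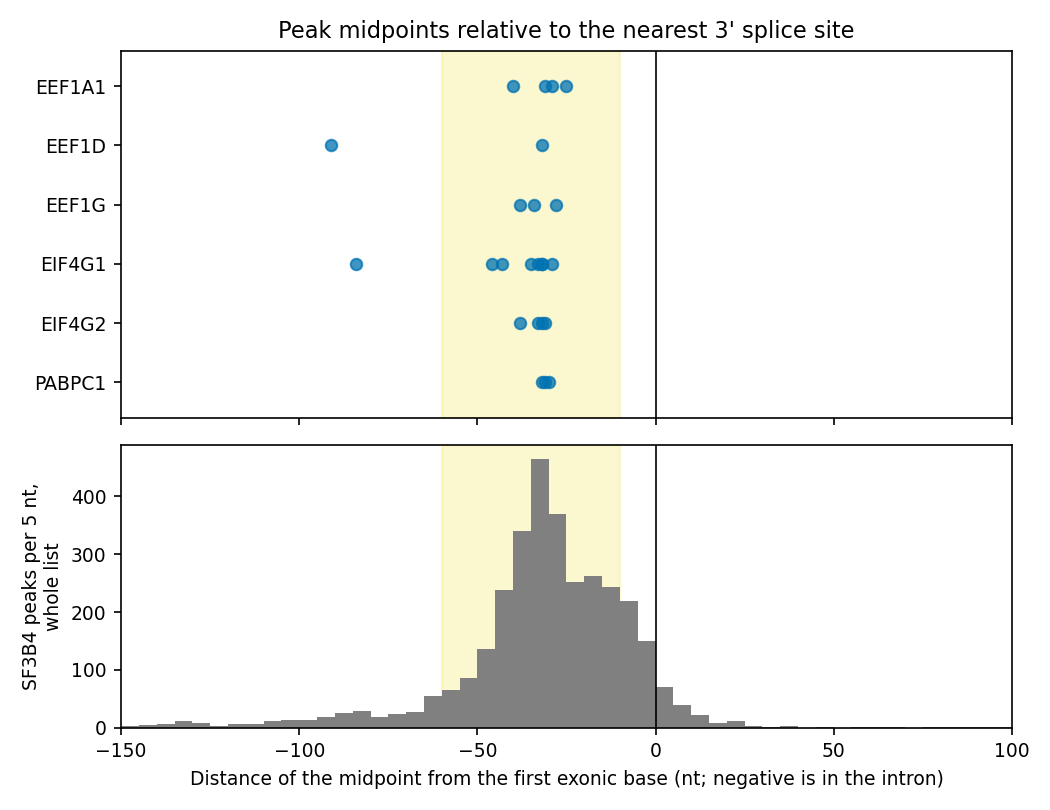
Distance of SF3B4 peak midpoints from the nearest 3' splice site (x axis, nt, negative in the intron). The upper panel has a point for each of the 24 peaks by gene, and the lower panel counts peaks of the whole list per 5 nt. The shaded band marks 10 to 60 nt upstream, which holds 22 of the 24 points.

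Peak heights spread widely within single genes. The 24 log2 folds ran from 3.05 in EEF1G to 6.96 in EEF1A1 with a median of 4.54, against a median of 3.93 over the whole list, and 17 of 24 were above that list median. In EEF1A1 the folds were 5.74, 3.94, 4.20 and 6.96 along the RNA, and in PABPC1 they were 4.69, 4.58 and 6.22. EIF4G2 had 3.72, 5.74, 4.0 and 4.90. EIF4G1 had 4.50, 5.66, 3.51, 4.90, 5.01, 3.09, 5.01 and 3.92. EEF1G had 3.91, 3.05 and 5.01, and EEF1D had 3.34 and 4.24. Every one of the 6 genes thus had a peak above the list median, and EEF1D, EEF1G, EIF4G1 and EIF4G2 each also had 1 or more below it. The −log10 p ran from 6.28 to 21.15 with a median of 11.215, against 8.94 over the whole list. The peaks were narrow, with a median width of 36.5 nt against 71 nt.

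**Figure D3:**
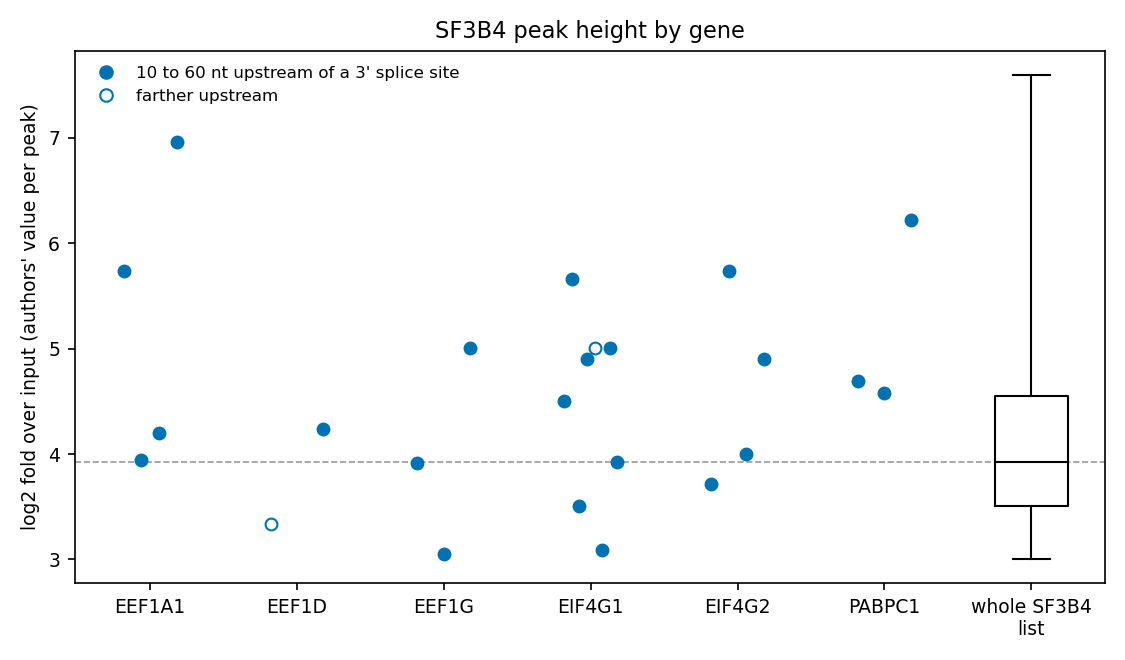
The authors' log2 fold over input (y axis) of each SF3B4 peak, by gene and in order along the RNA. Filled points lie 10 to 60 nt upstream of a 3' splice site and open points farther upstream. The box at the right spans the quartiles of all 3660 SF3B4 peaks with whiskers to the extremes, and the dashed line is their median of 3.93.

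EEF1A1 carried SF3B4 at 4 neighbouring 3' splice sites and at none of the later ones. They were those of introns 1, 2 and 3 and 1 upstream of them. The gene lies on the minus strand of chromosome 6 (73515750 to 73523797), and its introns are numbered here in the transcript EEF1A1-202, which has 6. Introns 1, 2 and 3 had their peaks at log2 folds of 3.94, 4.20 and 6.96, with midpoints 25, 29 and 31 nt upstream of the exon. The peak in intron 3 ranked 5th of 3660 by fold, and this intron is 83 nt long. Introns 4, 5 and 6, at 87, 89 and 95 nt, had no peak. The first peak along the RNA (73520069 to 73520124, log2 fold 5.74) was the one counted as exonic, because EEF1A1-202 reads through it. In 4 of the 5 transcripts of the basic set an exon begins at 73520056 after a first intron, and the midpoint lay 40 nt upstream of that exon. Whether the peak is exonic or intronic thus depends on the transcript. The annotation names 39 pseudogenes of EEF1A1, and 0 of the 88 genes named as pseudogenes of any of the 10 had a peak. Midpoints were given to a protein-coding gene first, so a pseudogene inside one on the same strand could not receive a peak. The 0 is thus no result about the pseudogenes. How reads matching both a gene and its copies were placed is not given in the sources.

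The ends of EEF1A1 introns 2 and 3 show where the peaks sit, with an intron of the same gene that has none. Each run holds the last 80 bases of the intron and the first 10 of the exon on hg38, read from GENCODE release 29 transcripts that keep the intron, and capitals mark bases inside the SF3B4 peak.
EEF1A1 intron 2, chr6:73519219-73519308, minus strand, peak at log2 fold 4.20: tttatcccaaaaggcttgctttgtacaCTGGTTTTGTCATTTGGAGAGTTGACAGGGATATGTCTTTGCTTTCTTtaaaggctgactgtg
EEF1A1 intron 3, chr6:73518839-73518928, minus strand, peak at log2 fold 6.96: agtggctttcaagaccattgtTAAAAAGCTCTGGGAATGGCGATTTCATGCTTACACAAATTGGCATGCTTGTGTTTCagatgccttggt
EEF1A1 intron 5, chr6:73518255-73518344, minus strand, no peak: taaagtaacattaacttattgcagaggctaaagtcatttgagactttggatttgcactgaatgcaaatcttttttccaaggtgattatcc
Both peaks cover the stretch in which branch points usually lie and come within a few bases of the closing AG. Counting C and T over bases 3 to 22 before the exon gave 75% in intron 2, 60% in intron 3 and 60% in intron 5. The letters CTNAC, which fit the loose human branch point consensus, occurred once in the last 60 bases of intron 3, as CTTAC with its A 27 nt upstream of the exon and inside the peak, and in neither intron 2 nor intron 5.

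EIF4G1 had the most peaks of the 10 genes. It was 1 of 24 genes with 8 or more among the 1884 genes with a peak in the SF3B4 list. It lies on the plus strand of chromosome 3 (184314495 to 184335358) and has 32 introns in the transcript EIF4G1-202, also the most of the 10 genes. Peaks stood 10 to 60 nt from the end of introns 5, 14, 17, 19, 25, 28 and 29, so that only introns 28 and 29 were neighbours. Intron 14 had the highest fold, 5.66. The peak midpoint lay 46 nt upstream of the nearest exon start, at 184323405, which is used by 5 of 13 basic transcripts. Another exon start 3 nt further on, at 184323408, was used by the other 8, with EIF4G1-202 among them. Intron 21 (575 nt) held the peak that lay farther from the end, 84 nt upstream at a log2 fold of 5.01. The 7 introns bound at the end ran from 106 to 2275 nt with a median of 166 nt, and the 25 other introns had a median of 223 nt. SNORD66, a box C/D small nucleolar RNA, lies in intron 20, which had no peak.

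Of the 7 EIF4G1 introns bound at the end, sequence was known for introns 19, 25 and 29, shown in the same way with the peak in capitals.
EIF4G1 intron 19, chr3:184325400-184325489, plus strand, log2 fold 4.90: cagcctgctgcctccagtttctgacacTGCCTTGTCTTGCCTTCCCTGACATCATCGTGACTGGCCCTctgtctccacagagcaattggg
EIF4G1 intron 25, chr3:184327750-184327839, plus strand, log2 fold 3.09: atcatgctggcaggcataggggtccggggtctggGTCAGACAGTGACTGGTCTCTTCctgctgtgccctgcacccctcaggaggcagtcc
EIF4G1 intron 29, chr3:184331392-184331481, plus strand, log2 fold 3.92: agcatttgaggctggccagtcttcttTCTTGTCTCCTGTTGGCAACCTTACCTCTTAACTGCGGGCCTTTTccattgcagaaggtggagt
CTNAC occurred in the last 60 bases of intron 19 with its A at 57 and at 32 nt upstream of the exon, the nearer one inside the peak, and in intron 29 at 31 nt, also inside the peak. Intron 25, the lowest of the 3 by fold, had none. Sequence was also known for 8 unbound EIF4G1 introns, not shown, of which 1, the first intron, held CTNAC. The C and T share over bases 3 to 22 was 70% in introns 19 and 29 and 75% in intron 25.

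EIF4G2 carried its 4 peaks in its first 10 introns. The gene lies on the minus strand of chromosome 11 (10797050 to 10809110). They marked the ends of introns 2, 3, 8 and 10 of 21 in the transcript EIF4G2-208, at 33, 32, 38 and 31 nt upstream of the exon. All 5 basic transcripts use these 4 exon starts. Intron 3 (772 nt) was highest at 5.74, followed by intron 10 (82 nt) at 4.90. Introns 11 to 21 had no peak, among them intron 14 with the small nucleolar RNA SNORD97. Sequence was known for the first 3 bound introns and for 7 unbound ones, of which intron 7 is shown.
EIF4G2 intron 2, chr11:10806876-10806965, minus strand, log2 fold 3.72: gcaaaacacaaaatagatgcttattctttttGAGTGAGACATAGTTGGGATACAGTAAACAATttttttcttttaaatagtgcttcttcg
EIF4G2 intron 3, chr11:10806038-10806127, minus strand, log2 fold 5.74: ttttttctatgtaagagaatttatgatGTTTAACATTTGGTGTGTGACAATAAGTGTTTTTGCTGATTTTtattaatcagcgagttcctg
EIF4G2 intron 8, chr11:10803581-10803670, minus strand, log2 fold 4.0: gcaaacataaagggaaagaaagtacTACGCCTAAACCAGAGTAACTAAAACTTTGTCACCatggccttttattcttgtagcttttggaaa
EIF4G2 intron 7, chr11:10804041-10804130, minus strand, no peak: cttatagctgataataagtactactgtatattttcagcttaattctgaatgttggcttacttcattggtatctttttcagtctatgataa
None of the 3 bound ends held CTNAC in its last 60 bases. Of the 7 unbound ends 2 held it, introns 7 and 19, and introns 1, 5, 13, 14 and 18 did not. The 3 bound ends had C and T at 70, 70 and 75% of bases 3 to 22, and intron 7 had 75%.

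EEF1G, whose product anchors the exchange complex of EEF1A1, lies on the minus strand of chromosome 11 (62559601 to 62574086) and had peaks at the ends of introns 3, 6 and 7 of 9. Intron 7, the longest at 6351 nt, had the highest fold, 5.01, with the midpoint 38 nt upstream. Intron 3 (155 nt) stood at 3.91 and 28 nt. Intron 6 (388 nt) stood at 3.05 and 34 nt, ranking 3549 of 3660. This last peak (62567025 to 62567063) lay wholly inside the annotated microRNA gene MIR6747, whose 61 nt hairpin ends on the last base of the intron. The hairpin from RefSeq (GRCh38.p14) is shown with the 39 bases of the peak in capitals.
MIR6747 hairpin, chr11:62567011-62567071, minus strand: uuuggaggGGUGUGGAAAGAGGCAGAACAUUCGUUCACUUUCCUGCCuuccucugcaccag
The closing cag is the end of intron 6. Intron RNA and microRNA precursor share these bases, so the list does not say from which of them the reads came. All 3 EEF1G peaks also lie within the overlapping gene AP002990.1, annotated as protein-coding on the same strand, and were given to EEF1G as the shorter gene.

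Over all 10 genes, sequence of the last 60 bases was known for 8 of 21 introns with a peak and 33 of 108 without one. CTNAC on the RNA strand stood in 3 of the 8 (37.5%) and in 7 of the 33 (21.2%). Over all protein-coding genes it stood in 32.6% of 1032 searchable introns with a peak and in 30.0% of all 22957 searchable introns, which include the 1032. Searchable introns, those whose end an annotated transcript covers, were 43.5% of introns with a peak and 12.3% of all introns. The shares thus describe searchable introns only. Its reverse complement, GTNAG, stood in 2 of the 8 (25%) and 4 of the 33 (12.1%), against 14.2% of the 1032 and 12.2% of the 22957. The C and T share had a median of 70% in the 8 and 80% in the 33, against 75% both in the 1032 and in all searchable introns. A quadruplex motif, 4 stretches of 3 or more G spaced by 1 to 7 nt, was in 0 of the 8 and 0 of the 33 on the RNA strand, in 6 of the 1032 (0.581%) and in 282 of the 22957 (1.23%). With 8 introns these shares are descriptions, and an absent motif says only that these letters are not in the window.

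PABPC1 and EEF1D lie on the minus strand of chromosome 8, and their sequence is not shown. PABPC1 (100685816 to 100722809) had peaks at the ends of introns 4, 10 and 14 of 14, with midpoints 30, 31 and 32 nt upstream of the exon. The last intron, 14 (937 nt), was highest at a log2 fold of 6.22 and ranked 27th of 3660. Intron 10, at 81 nt the shortest in the gene, stood at 4.58 and intron 4 (2280 nt) at 4.69. In EEF1D (143579697 to 143599541) introns are numbered in the transcript EEF1D-205. The last intron, 9 (181 nt), had a peak at 4.24 with its midpoint 32 nt upstream. The other EEF1D peak, at 3.34 in intron 3 (2138 nt), lay 91 nt upstream of an exon start used by 11 of 13 basic transcripts. The other 2 transcripts use one 3 nt further on. With all annotated transcripts counted, the midpoint of this peak lies in an untranslated exon.

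EEF1D was the only one of the 10 genes with peaks in both lists. Its 2 G4PID peaks were both intronic, one in intron 1 (143592559 to 143592606, log2 fold 4.33) and one in intron 3 (143587841 to 143587871, log2 fold 4.39). Both were below the median of 4.92 of the G4PID list and ranked 186 and 180 of 270. Neither lay 10 to 60 nt upstream of a 3' splice site, and only 7 of all 270 G4PID peaks did (2.59%). The one in intron 3 was 1004 nt upstream of the nearest, and the one in intron 1 was 78 nt past the start, and beyond the end, of a short exon that 1 of 13 basic transcripts uses. The G4PID and SF3B4 peaks of intron 3 were 881 nt apart and did not overlap. How often peaks of the 2 lists share a gene or overlap elsewhere is not given here, so neither observation is read as particular to EEF1D. Over the G4PID list 38.1% of peaks were intronic, and with 2 peaks no share is given for EEF1D.

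The bound introns were of all lengths. Of the 129 introns in 1 coding transcript for each of the 10 genes, 21 had an SF3B4 peak 10 to 60 nt from their end (16.3%, Wilson interval 10.9 to 23.6%). Over the introns of all protein-coding genes, with or without a peak, the count was 2370 of 187261 (1.27%). In the 6 genes with a peak it was 21 of 91 (23.1%), against 2370 of 27309 introns (8.68%) in all protein-coding genes with an SF3B4 peak. Genes enter the counts of 91 and 27309 introns because they have a peak, and a gene with many introns and 1 peak lowers the share. The figures thus describe how densely these genes were marked and were not tested. Introns with a peak had a median length of 219 nt (81 to 6351 nt), and the 70 others of the same 6 genes had 266 nt (74 to 6609 nt). In all protein-coding genes with an SF3B4 peak the medians were 568 and 864 nt. By length, the peak was present in 7 of 26 introns of up to 150 nt, 8 of 34 above 150 and up to 500 nt and 6 of 31 above 500 nt in the 6 genes (26.9, 23.5 and 19.4%). In all protein-coding genes with an SF3B4 peak these shares were 8.85, 11.9 and 7.46%, highest in the middle class. The member classes are small and their Wilson intervals overlap. The first intron was bound in EEF1A1 (1 of 6 genes, 16.7%, Wilson interval 3.01 to 56.4%). The last was bound in EEF1D and PABPC1 (2 of 6, 33.3%, interval 9.68 to 70%). Both intervals hold the 23.1% of all introns of the same 6 genes. In all protein-coding genes with an SF3B4 peak, 9.16% of first and 7.80% of last introns were bound.

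**Figure D4:**
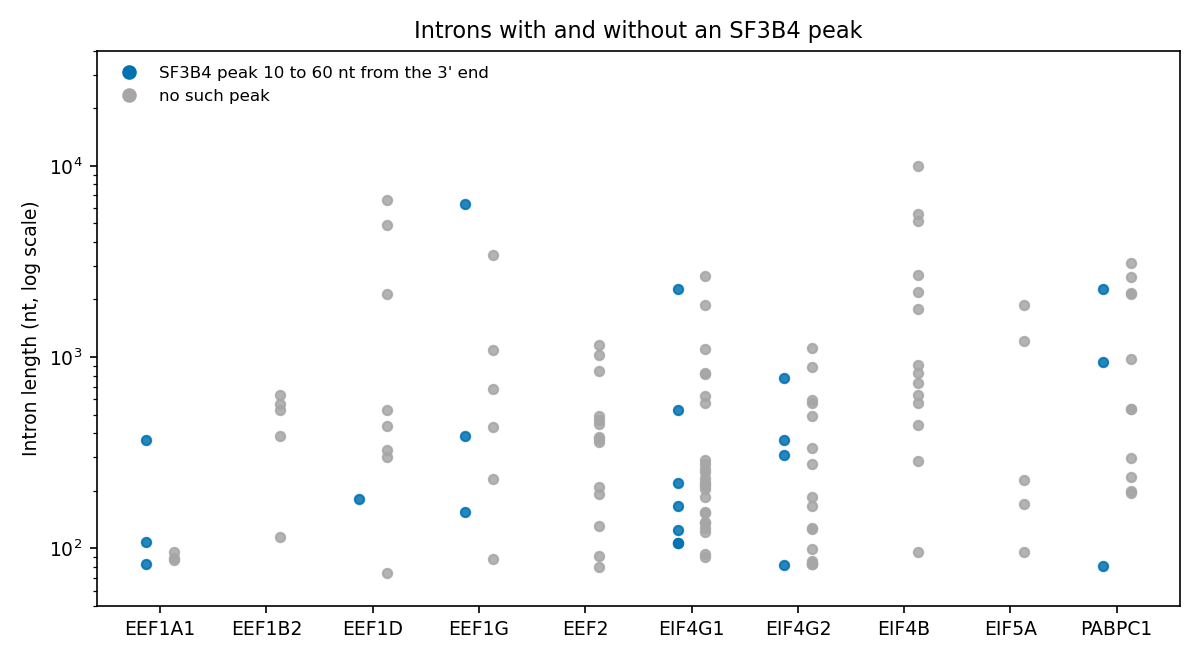
Length of each intron (y axis, nt, log scale) of 1 coding transcript per gene. Blue points are the 21 introns with an SF3B4 peak 10 to 60 nt upstream of the next exon, and grey points the 108 without one. The bound introns run from 81 to 6351 nt, within the 74 to 9976 nt of the unbound ones.

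The 4 genes without peaks have 5 to 14 introns each. EEF2 has 14 introns of 80 to 1156 nt and EIF4B has 14 of 95 to 9976 nt, and EEF1B2 and EIF5A have 5 each, of 114 to 635 nt and 96 to 1862 nt. EEF1B2 introns hold the small nucleolar RNAs SNORD51 and SNORA41, and intron 4 of EEF2 holds SNORD37. Introns with a named small nucleolar RNA numbered 5 over the 10 genes, 3 of them in genes with no peak, and 0 of the 5 had a peak at the end. Beside 21 of all 129 introns (16.3%), a count of 0 among 5 is no result about them. The small RNA gene in a bound intron was MIR6747.

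Other genes of the translation machinery had peaks in part. Of 58 further initiation, elongation, poly(A)-binding and termination factor genes, 11 had an SF3B4 peak and 1 had a G4PID peak, beside the same 8.88% and 0.496% of protein-coding genes. This gene list too was drawn up with earlier results of these data known. The 11 comprised 4 of 14 EIF3 genes, 3 of 18 genes for scanning and start codon factors, 2 of 11 genes of the EIF4 and cap group and 2 of 6 of the poly(A)-binding group. None of the 5 further elongation genes and none of the 4 termination and recycling genes had one. The highest were EIF4A1, the helicase that EIF4G1 holds (log2 fold 6.85, 45 nt upstream), EIF1, a start codon fidelity factor (5.84, 31 nt), EIF3B, a core subunit of EIF3 (5.66, 32 nt), and PABPC1L, a PABPC1 relative (5.13, 24 nt). The midpoint in PABPC1L lay in an untranslated exon of the basic set, and those in EIF4A1, EIF1 and EIF3B were intronic. The 31 SF3B4 peaks of the 11 genes were 10 to 60 nt upstream of a 3' splice site in 25 cases (80.6%), with a median log2 fold of 4.34 and a median width of 53 nt. EIF4A2, a close relative of EIF4A1, was the only one in both lists, with 8 SF3B4 peaks at 3.51 to 4.81 and 1 G4PID peak at 4.43 that lay in an intron of the basic transcripts, 119 nt upstream of an exon. Another annotated transcript has an exon at that midpoint.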

How the data were processed

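RNA from 6 eCLIP libraries was represented by 1 peak list per antibody, and input entered only through the authors' values. The submitters' processing notes name cutadapt 3.4, STAR 2.7.0d and the builds hg19 and hg38. Which peak caller and filters were used and how replicates were joined is not given in the sources. The 2 values per peak were deposited by the authors without a header, and were read as −log10 p-value and log2 fold over input from column order and range (SF3B4: at least 5.08 and at least 3.00). Peaks were given to the gene of the same strand that held the midpoint in GENCODE release 29 (protein-coding first, exon before intron, then the shorter gene). Exons and splice sites came from the basic set, and introns from 1 transcript per gene (APPRIS principal, then support level, then length). Sequence was rebuilt from 152153 transcripts with 0 length mismatches and 0 disagreeing bases. Functions were checked on simulated peaks. Python 3.11.15, numpy 2.4.6, scipy 1.17.1 and matplotlib 3.10.9 were used. The members and gene lists were chosen with earlier results of these data known. Named genes were all members, the 4 highest other factors per list and those in both lists, and small RNA genes in bound introns. The small nucleolar RNAs in introns without a peak were named in addition to this rule. Introns whose sequence is shown, and the remarks on shared splice sites, were chosen after their values were seen.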

Additional observations from a re-analysis of the deposited data

How the results depend on the processing

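Of 29 alternative values, 22 were counted as the same as the reported one and 7 as moved. Counts taken as the same were within a factor of 1.5. Shares taken as the same lay inside the Wilson interval of the reported share, and those taken as moved lay outside it. Restricting the SF3B4 list to a log2 fold of 4 or more left 15 of 24 peaks, and a −log10 p of 10 or more also left 15, and the same 6 genes kept a peak under both. The intronic share fell to 58.3% (14 of 24) when exons of all annotated transcripts were counted. With 1 peak per gene, the intronic share and the share 10 to 60 nt upstream were both 100% (6 of 6), and the median log2 fold was 5.70, by the construction of taking the highest peak. A window of 0 to 100 nt held 100% of the 24 peaks. With the 5' edge of the peak in place of its midpoint, 79.2% were 10 to 60 nt upstream, which was counted as the same. The other alternatives changed the assignment of peaks, the transcripts used or the intron set, or counted the same pair of values in a gene once. Some applied a cut to the G4PID list or to the other translation factor genes. One took the median fold over the peaks 10 to 60 nt upstream only. No paired analysis was possible because each list joins its libraries and no result comes from a test, and leaving out a library was impossible for the same reason. Depth is unknown.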

Other observations

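Many SF3B4 peaks in these genes had exactly the same pair of log2 fold and −log10 p as another peak of the list: 21 of 24, against 88.5% over the whole list. Among the members, 5.01 and 8.65 were shared by 1 EEF1G and 2 EIF4G1 peaks and by 17 peaks of the list, 5.74 and 14.9 by 1 EEF1A1 and 1 EIF4G2 peak, and 4.90 and 15.7 by 1 EIF4G1 and 1 EIF4G2 peak. An order between peaks with the same pair has no meaning. The EEF1A1 peak in intron 3, the EEF1A1 peak in intron 2 and the EEF1D peak in intron 3 were the ones with values of their own.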
